A study of Mus musculus with 44 samples.

Results

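The circadian clock genes described here are Arntl, Npas2, Per1, Per2, Per3, Cry1, Nr1d1, Nr1d2, Dbp and Ciart, a list of core clock and clock output genes that was matched by symbol to the Ensembl identifiers of the expression tables. All 10 were found among the 38202 genes in the tables, and all 10 passed the filter on low counts in both tissues. RNA was sequenced from liver and skeletal muscle of the same 22 mice, 11 wild-type (WT) mice and 11 Slc16a13 knockout (KO) mice, which gave 44 libraries in 4 groups of 11. Slc16a13 encodes a monocarboxylate transporter, and the KO was a constitutive whole-body deletion made with CRISPR/Cas9 on a C57BL/6N background, so no cell type was singled out. WT and KO mice were male littermates, aged 20 weeks, and both groups had eaten a high-fat diet (HFD) for 15 weeks, so no mouse on a regular diet was part of the comparison. By the study's methods, mice lived in a light-dark cycle and were killed after an overnight fast, and no hour of killing was given for any mouse. Whether mice differed in their hour of killing and whether they differed in the phase of their clock cannot be told apart here.

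The mammalian clock is a transcriptional feedback loop that runs in nearly every cell. The proteins of Arntl (BMAL1) and of Clock or Npas2 form a dimer that binds E-box sequences and switches on the Per and Cry genes, Nr1d1, Nr1d2, Dbp and Ciart. PER and CRY proteins then repress that dimer, which closes the loop. A second loop runs through Nr1d1 and Nr1d2 (REV-ERBα and REV-ERBβ), nuclear receptors that repress Arntl and Npas2 through ROR response elements, while ROR proteins activate the same elements. DBP, a transcription factor of the PAR bZIP family, acts through D-box sequences on genes such as Per3, and Ciart (CHRONO) is a further repressor of the BMAL1 dimer. Arntl and direct targets such as Dbp therefore run in roughly opposite phase over the day in liver and muscle, while Cry1 peaks later than the Per genes. Per1 also responds quickly to glucocorticoids and other acute signals.

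Of the 10 genes, 9 had promoter windows in the RefSeq table for GRCm38.p6, 11 windows in all because Arntl and Per1 had 2 each. Per2 was not matched. Each window holds 250 bases before and 50 bases after an annotated start. The windows were searched on both strands for the E-box CACGTG, the variant E-box CACGTT and the D-box TTATGTAA. For the ROR element the letters TNGGTCA were searched, with any base allowed at N. The following stretches are shown because they hold such matches. They are read 5′ to 3′ on the strand of the gene, with every match to a searched motif, on either strand, in capitals.
Ciart, chr3:95882255-95882356, minus strand: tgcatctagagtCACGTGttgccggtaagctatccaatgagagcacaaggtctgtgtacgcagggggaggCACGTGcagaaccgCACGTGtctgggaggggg
Per1, chr11:69098763-69098808, plus strand: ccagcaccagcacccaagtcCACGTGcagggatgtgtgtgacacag
Cry1, chr10:85185089-85185134, minus strand: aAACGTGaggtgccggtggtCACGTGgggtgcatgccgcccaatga
Per3, chr4:151044804-151044882, minus strand: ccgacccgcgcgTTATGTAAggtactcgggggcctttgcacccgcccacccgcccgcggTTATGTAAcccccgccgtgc
Arntl, chr7:113207254-113207301, plus strand: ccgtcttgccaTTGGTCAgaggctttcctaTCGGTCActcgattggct
Arntl, chr7:113207530-113207558, plus strand: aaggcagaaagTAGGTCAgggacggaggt
The Ciart stretch, 102 bases long and upstream of its start, holds 3 E-boxes, and 29 of all 32851 promoter windows held 3 or more (0.0883%). At least 1 E-box was present in 7.15% of all windows, and Ciart, Per1 and Cry1 were the genes here with one. The Per3 stretch holds 2 copies of the D-box, which only 7 of all windows held 2 times or more (0.0213%). Arntl had 2 matches to the ROR letters upstream of both annotated starts, TTGGTCA and TCGGTCA, and 1 past them, TAGGTCA. Its windows therefore held 2 and 3, where 0.755% of all windows held 2 or more matches to TNGGTCA and 0.0609% held 3 or more. The Per3 window held 1 such match, on the opposite strand and outside the stretch shown, as 11.0% of all windows held at least 1. The variant E-box was found in the windows of Cry1, where it is the first match of the stretch shown and lies on the opposite strand, and of Nr1d1, against 4.68% of all windows. The windows of Dbp, Npas2 and Nr1d2 held none of these letters. A match describes the letters in the window and does not show that a factor was bound in these mice.

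Sequencing depth ranged from 20150712 to 35218243 reads assigned to genes per library. Slc16a13, the targeted gene, had 99 to 302 reads in WT livers and 0 to 8 in KO livers. In muscle, where the gene was close to background, WT libraries had 4 to 22 reads and libraries labelled KO had 11 to 40, so the muscle values go against the label, and directions drawn from muscle below refer to libraries labelled KO. In 4 KO livers (mice 532, 583, 602 and 611) the counts fell with gene length relative to the other livers, with slopes of log2 CPM (counts scaled to the depth of the library) on log2 gene length of -0.53 to -0.079 against 0.037 to 0.11 in the other KO livers and 0.040 to 0.096 in WT livers. These 4 libraries were kept, and results that rest on them are given with and without them. Summed hepatocyte markers were 88227 to 147130 CPM in liver and at most 205 CPM in muscle, and summed muscle fibre markers were 126955 to 196734 CPM in muscle and 0.61 to 62.0 CPM in liver, so each tissue carried its own markers.

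The level of each clock gene spanned a wide range between mice of 1 group, and the WT and KO ranges overlapped for every gene in both tissues. Arntl, the activator of the loop, ran in WT livers from 7.82 CPM in mouse 516 through a median of 13.3 to 26.4 CPM in mouse 623. In KO livers Arntl ran from 6.42 CPM in mouse 532 through 13.2 to 23.9 CPM in mouse 561. In muscle Arntl was 25.2, 41.1 and 56.8 CPM (lowest, median and highest of 11) in WT mice and 29.4, 44.6 and 57.0 CPM in libraries labelled KO. Every muscle library therefore had more Arntl than all livers but the highest, the WT liver of mouse 623. Npas2, the partner of BMAL1 that can stand in for CLOCK, was low, at 1.18, 1.70 and 6.33 CPM in WT livers and 0.57, 1.81 and 4.21 CPM in KO livers. In muscle Npas2 spanned 1.18 to 3.11 CPM over both genotypes.

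Among the repressors, Per1 was 6.18, 39.04 and 66.3 CPM in WT livers and 14.8, 38.9 and 55.8 CPM in KO livers. Per1 was 37.5, 76.0 and 160 CPM in WT muscle and 33.3, 89.9 and 138 CPM in muscle labelled KO. Per2 was 8.29, 20.0 and 32.3 CPM in WT livers and 7.69, 12.1 and 26.3 CPM in KO livers, above its muscle levels of 3.42, 5.35 and 11.8 CPM in WT and 2.48, 4.36 and 11.96 CPM in KO. For Per2 the livers overlapped the upper end of the muscles only. Per3 was 3.41, 7.17 and 22.9 CPM in WT livers and 3.73, 6.33 and 10.6 CPM in KO livers. In muscle Per3 was 13.5, 21.6 and 31.7 CPM in WT and 15.96, 18.8 and 25.5 CPM in KO, and the WT liver of mouse 516 was the single liver inside that range. Cry1 varied least of the repressors, at 6.07, 8.37 and 10.8 CPM in WT livers, 5.24, 7.46 and 10.4 CPM in KO livers, and 9.95 to 16.04 CPM over all muscles.

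Nr1d1, a REV-ERB gene, was the most abundant of the 10 in every group. It was 41.9, 98.9 and 123 CPM in WT livers and 37.1, 76.5 and 163 CPM in KO livers, against 141, 171 and 222 CPM in WT muscle and 113, 157 and 227 CPM in muscle labelled KO. Nr1d2 was 40.7, 56.5 and 75.4 CPM in WT livers and 18.7, 45.5 and 80.6 CPM in KO livers, and 70.5 to 113 CPM over all muscles. Dbp, the D-box activator, was 5.70, 17.1 and 69.6 CPM in WT livers and 7.12, 23.7 and 52.5 CPM in KO livers, with 5.78, 13.2 and 49.3 CPM in WT muscle and 6.29, 10.8 and 25.1 CPM in muscle labelled KO. Ciart spanned the widest fold in liver, with 0.37, 4.28 and 12.1 CPM in WT livers, a 32.7-fold range, and 0.45, 5.03 and 13.5 CPM in KO livers, a 29.9-fold range. Its lowest livers rested on 10 and 11 reads. In muscle Ciart was 1.26, 3.09 and 7.37 CPM in WT and 1.40, 2.52 and 9.92 CPM in KO, a 5.84-fold and a 7.07-fold range, beside 8.52-fold for Dbp in WT muscle. The mice at the extremes recurred across genes. Mice 623 (WT) and 561 (KO) had the highest liver Arntl and the lowest liver Dbp, Ciart and Per1 of their genotypes, while mice 516 (WT) and 568 (KO) had the highest Dbp and Per3 of their genotypes in both tissues.

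**Figure D1:**
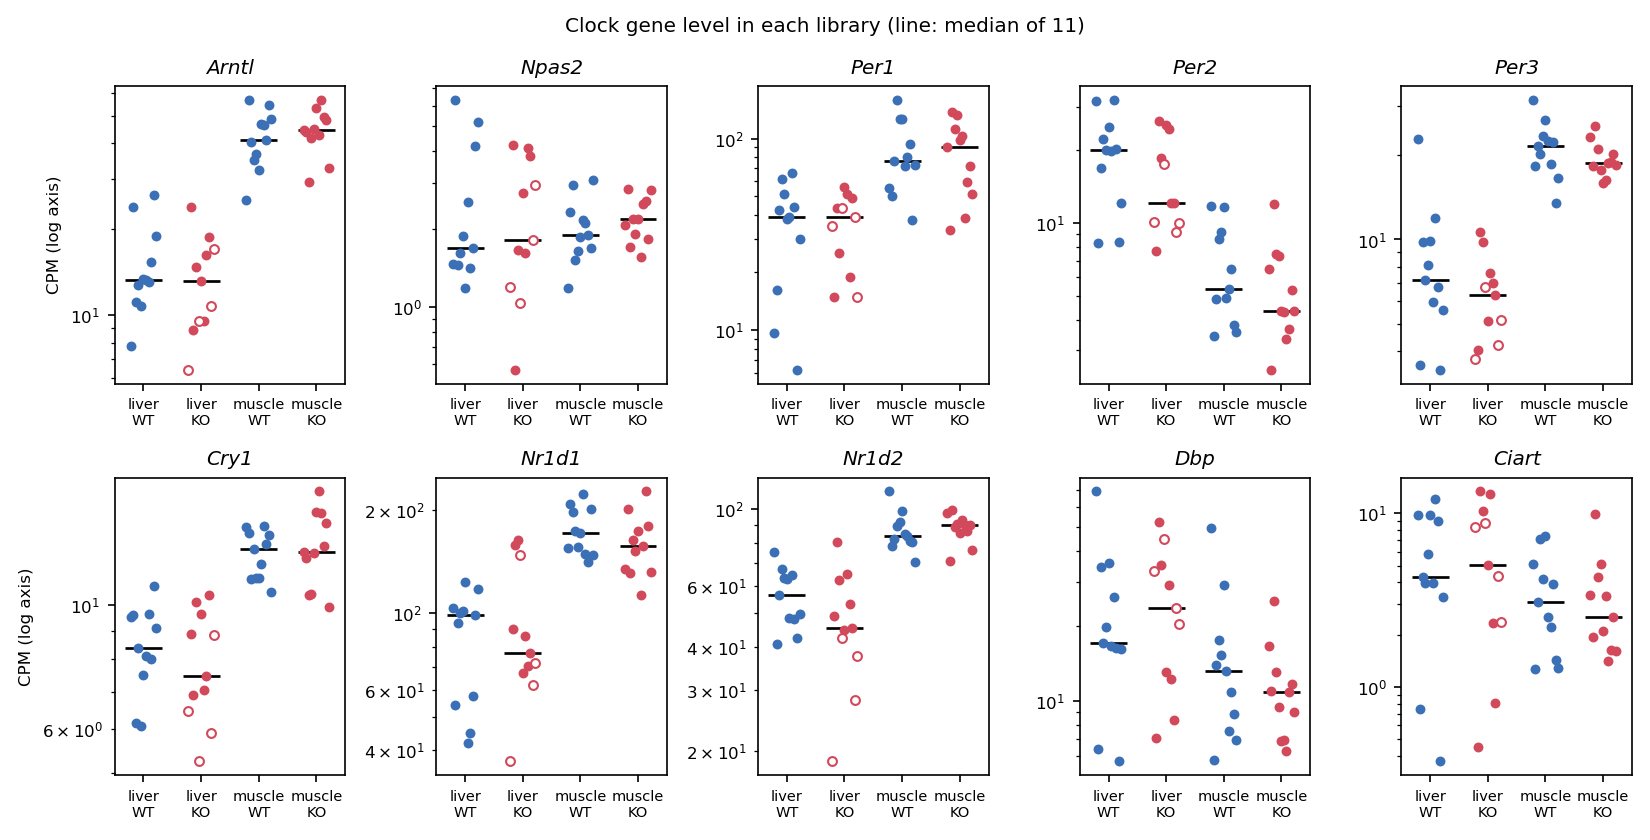
Level of each clock gene in CPM (log axis) in the 44 libraries, with WT mice in blue, KO mice in red, a line at the median of each group of 11, and open circles for the 4 KO livers whose counts fell with gene length. WT and KO points overlap in every panel, Arntl and Per3 sit higher in muscle, Per2 sits higher in liver, and Ciart spans the widest range in liver.

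Per length, in the deposited RPKM values (reads scaled by gene length and library depth), the order of the medians in WT liver was Nr1d1 (36.5), Dbp (13.7), Nr1d2 (13.3), Per1 (9.16), Arntl (4.49), Per2 (3.35), Ciart (3.35), Cry1 (2.65), Per3 (1.43) and Npas2 (0.427). In WT muscle the order was Nr1d1 (63.4), Nr1d2 (20.0), Per1 (19.4), Arntl (14.9), Dbp (10.3), Per3 (4.86), Cry1 (4.2), Ciart (3.19), Per2 (0.988) and Npas2 (0.468). Neighbours in these orders overlapped in range, except that Nr1d1 in WT muscle, at 54.7 to 87.6 RPKM, lay wholly above Nr1d2 at 16.4 to 25.3 RPKM. Per2 thus ranked above Per3 in liver and below it in muscle.

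The spread between mice of the same genotype was given as the standard deviation (SD) of log2 CPM, averaged as variances over WT and KO. In liver it was 1.55 for Ciart, which ranked 35 of 13005 genes, 1.005 for Dbp (rank 200), 0.94 for Per1, 0.84 for Npas2, 0.66 for Per2 and for Per3, 0.61 for Nr1d1, 0.53 for Arntl, 0.47 for Nr1d2 and 0.30 for Cry1, beside a median of 0.29 over all genes. Cry1 was therefore as steady as a typical liver gene, and the other 9 varied more. In muscle the SD was 0.87 for Ciart (rank 182 of 13266), 0.77 for Dbp, 0.66 for Per1, 0.64 for Per2, 0.34 for Npas2, 0.32 for Arntl, 0.27 for Per3 and for Nr1d1, 0.19 for Cry1 and 0.16 for Nr1d2, beside a median of 0.17. Ciart, Dbp and Per1 were the 3 most variable clock genes in both tissues.

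The comparison of KO with WT asks whether loss of the transporter altered the clock genes in either tissue. In liver none of the 10 genes passed the test, edgeR's quasi-likelihood F-test with Benjamini-Hochberg adjustment over all genes and a threshold of 0.05, against 3 of 13005 genes called (0.0231%). None of the 10 reached an unadjusted p below 0.05 either, where 1675 genes did, and DESeq2 called none of the 10 and 6 genes in all. The smallest adjusted p belonged to Per3 (0.41), with a log2 fold change of KO over WT of -0.44 (SE 0.27, 95% interval -0.97 to 0.09). Arntl was at -0.17 (interval -0.59 to 0.25), Nr1d1 at 0.13 (-0.34 to 0.60), Per2 at -0.33 (-0.83 to 0.18), Dbp at 0.08 (-0.67 to 0.83) and Ciart at 0.12 (-0.88 to 1.12). The median over the 10 genes was -0.14, beside -0.0054 over all genes. Dbp and Ciart had the widest intervals, and differences within them were not detectable with this spread between mice. The values above include the KO livers whose counts fell with gene length. Without those livers none of the 10 genes was called or had an unadjusted p below 0.05. Then 391 of 13210 genes (2.96%) had one, and the smallest edgeR adjusted p of the 10 was 0.999.

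In muscle none of the 10 genes was called by edgeR, against 1 of 13266 genes (0.00754%), with 1146 genes at an unadjusted p below 0.05 but none of the 10, and DESeq2 called none of the 10 and 1 gene in all. Dbp had the lowest adjusted p (0.68), with a log2 fold change of libraries labelled KO over WT of -0.48 (SE 0.32, 95% interval -1.11 to 0.14). Nr1d2 had the tightest interval, -0.10 to 0.16 around 0.03, and Cry1 the next, -0.11 to 0.20 around 0.05. The genotype difference was also compared between tissues, and none of the 10 genes was called, against 1 of 14739 genes (0.00678%), with 2384 genes at an unadjusted p below 0.05 and none of the 10 among them. DESeq2 called none of the 10 in that comparison and 44 genes in all. Of the other clock genes, a list of 16 that includes Clock, Cry2, Rora, Nfil3, Tef, Hlf, Bhlhe40 and Bhlhe41, none of the 15 tested in liver and none of the 14 tested in muscle was called. Their median log2 fold change was -0.14 in liver and -0.03 in muscle. Of the 14 clock output genes, which include Usp2, Alas1, Cyp7a1, Elovl3 and Pdk4, none of the 13 tested in liver and none of the 12 tested in muscle was called.

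The level of most clock genes differed between the tissues, as did that of most genes. In WT mice 7 of the 10 genes were called between liver and muscle, where 88.0% of all 14739 genes were, and in KO mice 8 of 10, where 88.7% were, so the count by itself was not above that of other genes. Arntl was lower in liver, with a log2 fold change of -1.47 (SE 0.18, edgeR adjusted p = 4.6e-10) in WT mice and -1.71 (SE 0.18) in KO mice. Per3 was lower in liver by -1.31 and -1.62, Per1 by -1.23 and -1.25, Nr1d1 by -1.04 and -0.78, Nr1d2 by -0.62 and -0.88 and Cry1 by -0.55 and -0.69, in WT and KO mice, respectively. Per2 went the other way and was higher in liver by 1.56 (SE 0.27, edgeR adjusted p = 9.1e-07) in WT and 1.51 (SE 0.27) in KO mice. Dbp was called higher in liver in KO mice, at 1.14 (SE 0.37, edgeR adjusted p = 0.0042), while its WT value of 0.57 (SE 0.37) was not called, and the difference between these values was not called. With the animal as replicate block, which compares the tissues within each mouse, Dbp was also called in WT mice at 0.54 (edgeR adjusted p = 0.021) and Ciart in KO mice at 0.70 (edgeR adjusted p = 0.029), and the counts became 8 and 9 of 10. Npas2 was not called in either genotype, at 0.37 (SE 0.27) and 0.09 (SE 0.27). Of the 15 other clock genes tested, 5 were called higher and 9 lower in WT liver, and 3 higher and 8 lower in KO liver. Hlf, a PAR bZIP factor like DBP, was higher in WT liver by 3.30, and Bhlhe41 was lower by -3.71. Tef, the third PAR bZIP gene, was lower in WT liver by -1.25. 

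The next comparison asks how the clock genes go together from mouse to mouse, with Arntl as the reference. The slope of each gene on Arntl was fitted over 22 livers and over 22 muscles with genotype in the model and is given in log2 units of the gene per log2 unit of Arntl. All genes of a library share its sequencing depth and scaling. In liver 5 of the 9 genes were called, 1 with a positive and 4 with a negative slope, where 736 of 13004 genes (5.66%) were called. In muscle 4 of the 9 were called, all negative, where 70 of 13265 genes (0.528%) were. The median slope over the 9 genes was -0.77 in liver, beside 0.0050 over all genes. Of the genes called in liver 42.3% had positive slopes, which became 63.2% when scaling by library size alone and 73.4% in the RPKM values. Under both of these, and with limma-voom, Cry1 was called with a positive slope in liver and Per2 and Per3 were no longer called, with edgeR and limma adjusted p values of 0.050 to 0.076. In muscle limma-voom called 3 of the 9, as Ciart was lost (slope -1.69, limma adjusted p = 0.10).

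Dbp went down where Arntl went up, with a slope in liver of -1.64 (SE 0.23, edgeR adjusted p = 8.4e-04) and in muscle of -2.08 (SE 0.26, edgeR adjusted p = 1.6e-04). The liver of mouse 516 shows the relation at one end, with Arntl at -0.87 and Dbp at 1.85 log2 units from the means of the WT group, and the liver of mouse 623 at the other, with Arntl at 0.87 and Dbp at -1.74. Dbp lay on the opposite side of its group mean from Arntl in 19 of 22 livers and 15 of 22 muscles, and in muscle Ciart did so in 18 mice and Nr1d2 in 16. Ciart had the steepest slopes, -2.10 (SE 0.46, edgeR adjusted p = 0.021) in liver and -2.25 (SE 0.40, edgeR adjusted p = 0.0071) in muscle. Both genes are known targets of the BMAL1 dimer.

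Of the Period genes, Per2 had a slope of -0.82 (SE 0.23, edgeR adjusted p = 0.043) in liver and -1.60 (SE 0.27, edgeR adjusted p = 0.0041) in muscle. Per3 had a slope of -0.79 (SE 0.23, edgeR adjusted p = 0.048) in liver and -0.63 (SE 0.12, edgeR adjusted p = 0.014) in muscle. Per1 was not called in either tissue, with slopes of -0.77 (SE 0.37, edgeR adjusted p = 0.15) and -0.96 (SE 0.43, edgeR adjusted p = 0.50). Npas2, a target of the same ROR elements as Arntl, was the single gene called with a positive slope, 1.34 (SE 0.19, edgeR adjusted p = 8.6e-04) in liver. Its muscle slope was 0.45 (SE 0.24, edgeR adjusted p = 0.61). Cry1, whose transcript is known to peak later than those of the Per genes, had positive slopes of 0.34 (SE 0.10, edgeR adjusted p = 0.050) in liver and 0.25 (SE 0.12, edgeR adjusted p = 0.55) in muscle, neither called.

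**Figure D2:**
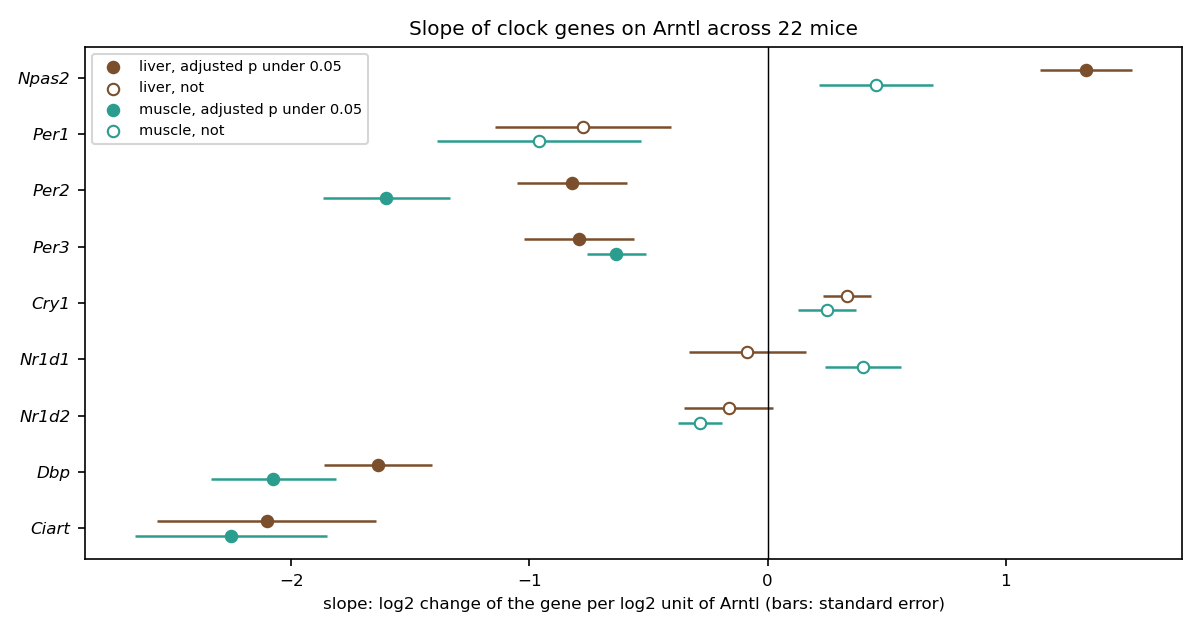
Slope of each clock gene on Arntl over 22 livers (brown) and 22 muscles (green), in log2 units of the gene per log2 unit of Arntl, with bars for the standard error and filled points for edgeR adjusted p under 0.05. Dbp, Ciart, Per2 and Per3 have filled points left of 0 in both tissues, Npas2 has a filled point right of 0 in liver, and Nr1d1 has open points on both sides of 0.

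Over all 22 mice neither REV-ERB gene was called in either tissue. Nr1d1 had a slope of -0.09 (SE 0.24) in liver and 0.40 (SE 0.16, edgeR adjusted p = 0.40) in muscle, and Nr1d2 had -0.16 (SE 0.19) in liver and -0.28 (SE 0.09, edgeR adjusted p = 0.22) in muscle. The intervals were -0.57 to 0.39 for Nr1d1 in liver and 0.09 to 0.72 in muscle, so that a slope as steep as that of Dbp lay outside both. The 2 paralogs also differed in how they went together, with a Pearson r of 0.63 between Nr1d1 and Nr1d2 in liver and -0.28 in muscle. With Nr1d1 in place of Arntl as the reference, edgeR called none of the 9 genes in liver, where it called 365 genes and 2 of the 9 had an unadjusted p below 0.05 (Nr1d2 and Per3, both with positive slopes). In muscle edgeR called none of 13265 genes, 858 of which had an unadjusted p below 0.05, with 3 of the 9 among them (Arntl, Per2 and Ciart).

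Leaving out the 4 KO livers whose counts fell with gene length changed the liver slopes. Then 6 of the 9 genes were called, where 113 of 13209 genes (0.855%) were, and Nr1d2 joined with a slope of -0.49 (SE 0.08, edgeR adjusted p = 0.0067). The slopes of Per2 and Per3 were -1.18 (SE 0.17) and -1.19 (SE 0.18) without these libraries. Arntl in the 4 livers was 6.42, 9.53, 10.7 and 17.02 CPM, at ranks 1, 4, 5 and 9 from the lowest of the 11 KO livers. Markers of muscle fibres also went with Arntl in liver, as 3 of the 4 that could be tested were called with negative slopes (Ckm -2.05, Myh4 -1.64 and Acta1 -1.58), and the summed marker level was 2.61 to 62.0 CPM in WT livers and 0.61 to 23.5 CPM in KO livers. The part of these markers and of gene length in the slopes was not tested beyond the values given.

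The correlations across mice were taken on log2 CPM after centring within genotype. In liver Pearson r with Arntl was -0.85 for Dbp (Spearman rho -0.81, permutation p = 1e-05, the smallest that 100000 resamples allow, adjusted p = 0.0065 over all genes), 0.82 for Npas2 (rho 0.80, permutation adjusted p = 0.0065) and -0.81 for Ciart (rho -0.71, permutation adjusted p = 0.0079). Without the 2 mice whose liver Arntl was farthest from the median, these were -0.79, 0.79 and -0.71. By rho the permutation adjusted p was 0.020 for Dbp and for Npas2 and 0.056 for Ciart, so that the call of Ciart is lost. Cry1 (0.62), Per2 (-0.60) and Per3 (-0.53) had permutation adjusted p values of 0.059, 0.064 and 0.090, so Per2 and Per3 passed by the edgeR slope and not by this test. Per1 was at -0.42, which fell to -0.15 without the 2 mice farthest in liver Arntl (623 and 561). Without the 2 farthest in liver Per1 (516 and 623) it was -0.60, so the value depends on which mice are left out. Per1 lay on the opposite side of its group mean from Arntl in 18 of 22 livers. Nr1d1 was at 0.0074 and Nr1d2 at -0.047. In muscle r was -0.83 for Dbp (rho -0.76, permutation p = 3e-05, adjusted p = 0.019), -0.76 for Per2 (rho -0.72, permutation adjusted p = 0.034), -0.74 for Per3 (rho -0.65, permutation adjusted p = 0.049) and -0.73 for Ciart (rho -0.75, permutation adjusted p = 0.052). By rho none of these was called in muscle, with permutation adjusted p values of 0.074 for Dbp, 0.104 for Per2, 0.197 for Per3 and 0.079 for Ciart. Without the 2 mice farthest in muscle Arntl, 516 and 568, these were -0.68, -0.64, -0.57 and -0.67. The other muscle values were -0.54 for Nr1d2, 0.46 for Npas2 and for Nr1d1, 0.43 for Cry1 and -0.38 for Per1, none with a permutation adjusted p under 0.05.

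**Figure D3:**
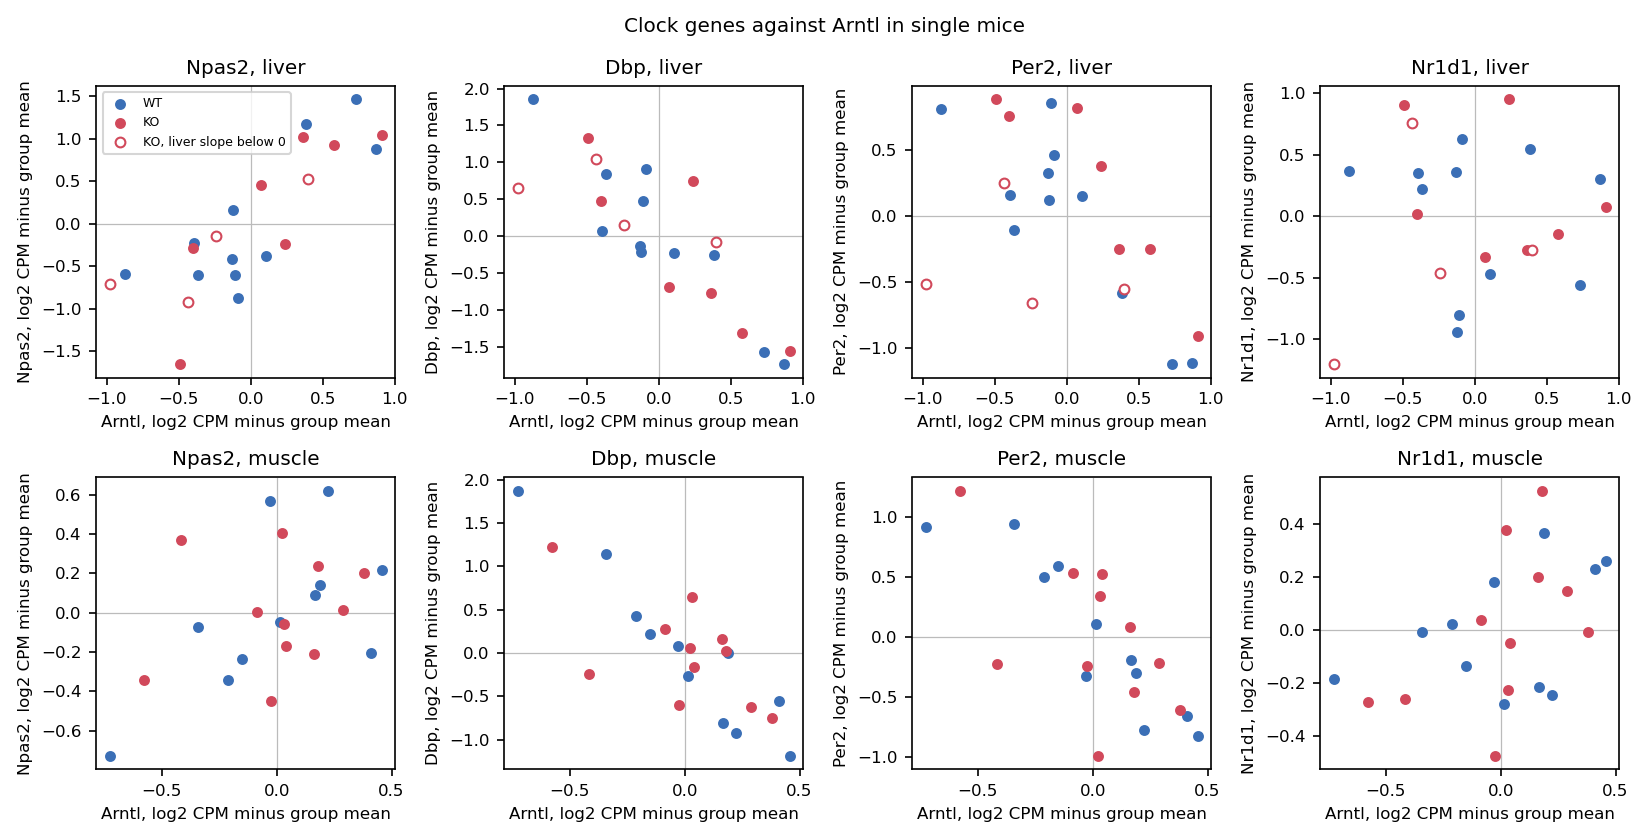
Npas2, Dbp, Per2 and Nr1d1 against Arntl in 22 livers (top) and 22 muscles (bottom), each as log2 CPM minus the mean of its genotype, with WT mice in blue, KO mice in red and, in liver, open circles for the 4 KO livers whose counts fell with gene length. Dbp falls with Arntl in both tissues (r of -0.85 and -0.83), Npas2 rises with it in liver (0.82), and Nr1d1 shows no slope in liver (0.0074).

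Among the targets of the dimer, Dbp, Ciart, Per2 and Per3 went together with each other, with r of 0.67 to 0.88 in liver and 0.68 to 0.92 in muscle over their 6 pairs. In liver r was 0.88 between Dbp and Ciart, 0.81 between Per2 and Per3, 0.81 between Per2 and Ciart and 0.76 between Dbp and Per3. In muscle r was 0.92 between Per2 and Ciart, 0.86 between Dbp and Per3, 0.80 between Dbp and Per2 and 0.78 between Per1 and Ciart. The other targets did not all go with them, and in liver Cry1 was at -0.48 with Dbp, -0.42 with Ciart and -0.089 with Per2, Nr1d1 at 0.14 with Ciart, and Per1 at 0.29 with Dbp. Npas2 went against this group in liver, with -0.86 to Dbp and -0.83 to Ciart, and in muscle most against Nr1d2, at -0.81. Per3 had its highest muscle correlation with Dbp, and its highest in liver, over all 22 mice, with Per2. Nr1d2 in muscle went with Per2 (0.81), Dbp (0.73) and Ciart (0.71), while its paralog Nr1d1 was at -0.42, -0.11 and -0.36 with the same genes. In liver Nr1d2 was at 0.74 with Per3, 0.67 with Per2 and 0.31 with Dbp and with Ciart. Without the KO livers whose counts fell with gene length, these were 0.80, 0.72, 0.69 and 0.63. Liver r was then 0.88 between Dbp and Ciart, 0.79 between Per2 and Per3 and 0.89 between Per2 and Ciart. Between Dbp and Per3 it was 0.88, then the highest for Per3. These pairs are given as a description over the same 22 mice, or over those left without these livers.

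**Figure D4:**
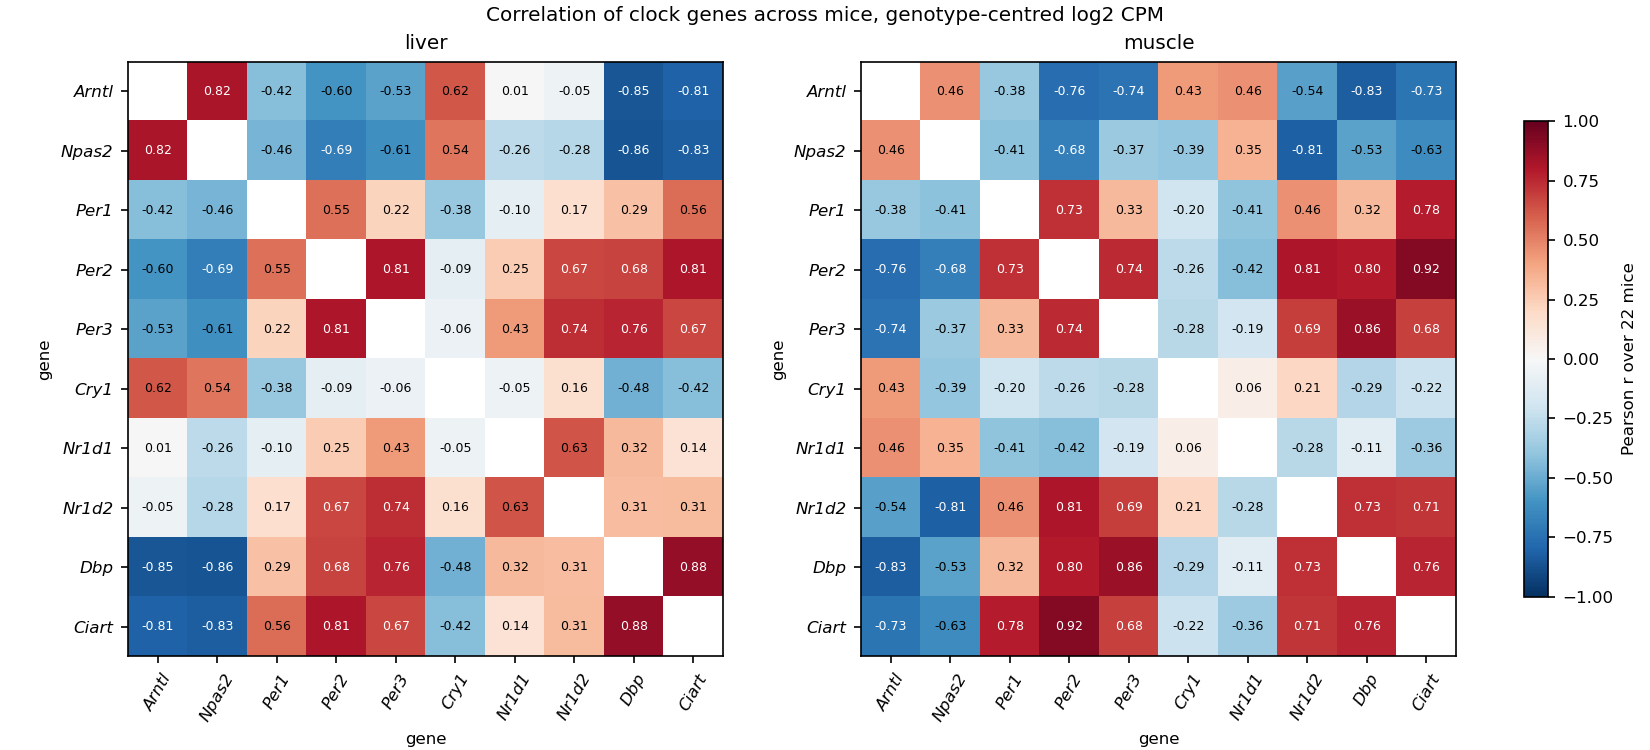
Pearson r between the clock genes over 22 mice in liver (left) and muscle (right), on log2 CPM centred within genotype with positive values in red and negative values in blue. Dbp, Ciart, Per2 and Per3 are red against each other and blue against Arntl in both tissues. The row of Nr1d1 is red against Nr1d2 (0.63) and Per3 (0.43) in liver and blue against Per1 (-0.41), Per2 (-0.42) and Ciart (-0.36) in muscle.

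Within genotypes the Dbp relation to Arntl held its sign, with r of -0.92 in the 11 WT and -0.80 in the 11 KO livers, and -0.94 and -0.62 in the muscles. In liver r was 0.80 in WT and 0.83 in KO mice for Npas2, and -0.79 and -0.82 for Ciart. For Per3, Nr1d2 and Per2 the liver values lay further apart. Per3 was at -0.91 in WT and -0.053 in KO livers, Nr1d2 at -0.85 and 0.32, and Per2 at -0.85 and -0.36. Among the 7 KO livers left without those whose counts fell with gene length, r was -0.69 for Per3, -0.75 for Nr1d2 and -0.92 for Per2. In muscle Nr1d2 was at -0.87 in WT and -0.020 in libraries labelled KO. The difference of the slopes between genotypes was tested directly with edgeR, and none of the 9 genes was called in either tissue, where 0% of 13004 genes in liver and 0% of 13265 in muscle were called. At an unadjusted p below 0.05 there were 2777 genes in liver, of the 9 Per3 alone (slope in KO minus WT 1.34, SE 0.37, edgeR adjusted p = 0.19), and 792 genes in muscle, of the 9 Cry1 (0.59, SE 0.22) and Nr1d2 (0.43, SE 0.17), each with an edgeR adjusted p of 0.78. The difference of the slopes between tissues was also tested, and none of the 9 was called by edgeR, where 32 of 14738 genes (0.217%) were and 1030 had an unadjusted p below 0.05. Npas2 (liver minus muscle 0.88, SE 0.35, edgeR adjusted p = 0.58) and Per2 (0.79, SE 0.38, edgeR adjusted p = 0.70) were the 2 of the 9 among these. The call of Npas2 in liver and not in muscle is thus not shown to be a difference between the tissues.

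Of the other clock genes in liver, 2 of the 15 tested were called with negative slopes on Arntl, Tef at -0.51 (SE 0.12, edgeR adjusted p = 0.030) and Bhlhe41, an E-box repressor also known as DEC2, at -1.08 (SE 0.20, edgeR adjusted p = 0.0084). Of 13 output genes tested in liver, 4 were called. Usp2, a ubiquitin protease whose transcript is a known clock output, had a slope of -1.91 (SE 0.36, edgeR adjusted p = 0.0079), Upp2, a uridine phosphorylase, -0.96 and Alas1, the first enzyme of haem synthesis, -0.90. Pdk4, a kinase that restrains pyruvate oxidation in the fasted state, had a positive slope of 1.47 (SE 0.24, edgeR adjusted p = 0.0020). The median slope was -0.04 over the other clock genes and -0.36 over the output genes. Over both lists 6 of 28 genes were called in liver, 1 with a positive and 5 with a negative slope, where 5.66% of all genes were. In the RPKM values 4 were called, 2 in each direction, in WT mice alone 1 and in KO mice alone 0. Without the 4 KO livers whose counts fell with gene length 8 of 28 were called, 1 with a positive and 7 with a negative slope. Then 0.855% of all genes were called. The slopes of single genes in this paragraph include these livers. In muscle edgeR called none of the 12 output genes.

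Over all genes with a symbol, those whose level was most like that of Arntl across the 22 livers included Zc3h6 (r = 0.87), Asap2 (0.85), Clpx (0.85) and St5 (0.85), and the most opposite were Dbp (-0.85), Scly (-0.83), Ciart (-0.81), Usp2 (-0.80) and Cyp2a5 (-0.80). Clpx encodes the unfoldase of the mitochondrial ClpXP protease, Scly selenocysteine lyase and Cyp2a5 a cytochrome P450. In muscle the most alike were Slc16a9 (r = 0.95), which belongs to the same transporter family as the deleted gene, Dyrk2 (0.90), Ccrl2 (0.89), Slc25a36 (0.88) and Crebrf (0.88), and the most opposite were Dbp (-0.83), Rbp7 (-0.78), Per2 (-0.76), Dctpp1 (-0.75) and Ifi204 (-0.75). By Pearson r Dbp was the gene most opposite to Arntl in both tissues, among the genes with a symbol out of 13004 tested in liver and 13265 in muscle. By rho Dctpp1 and Ifi204 (-0.764 each) lay below Dbp (-0.759) in muscle.

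The last comparison asks whether a mouse that was high in a clock gene in liver was also high in muscle. Over the 22 mice, r between the tissues of the same animal was 0.76 for Per1, 0.70 for Ciart, 0.65 for Per2, 0.65 for Dbp, 0.60 for Per3, 0.55 for Npas2, 0.53 for Arntl, 0.25 for Nr1d2, 0.074 for Cry1 and -0.13 for Nr1d1. The median over all 11607 genes measured in both tissues was 0.082. Of the 10 genes, Per1 was the single one called (rho 0.68, permutation p = 4e-05, adjusted p = 0.021), where 24 of the 11607 genes (0.207%) were called, all with positive r. Ciart had a permutation adjusted p of 0.084, with rho 0.75, and the rest lay at 0.21 or above.

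Per1 was low in both tissues of mice 561, 611, 597, 623, 516 and 528, which lay at -2.26 to -0.76 log2 units from their group means in liver and at -1.18 to -0.54 in muscle. Without the 2 mice farthest in liver Per1, r was 0.72, and within genotypes it was 0.83 in WT and 0.72 in KO mice. Without the 4 mice whose KO liver counts fell with gene length, r was 0.76 over 18 mice with a permutation adjusted p of 0.063. Per3 fell from 0.60 to 0.28 without mice 623 and 516 and so rests on them. Arntl was at 0.85 in WT and 0.19 in KO mice, and at 0.75 without the 4 mice. The side of the group mean was the same in both tissues for Ciart and Npas2 in 18 of 22 mice, for Per1 in 17 and for Nr1d1 in 10. Of the other lists, Usp2 (r = 0.87, permutation adjusted p = 0.0089) and Coq10b (r = 0.76, permutation adjusted p = 0.014) were called.

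**Figure D5:**
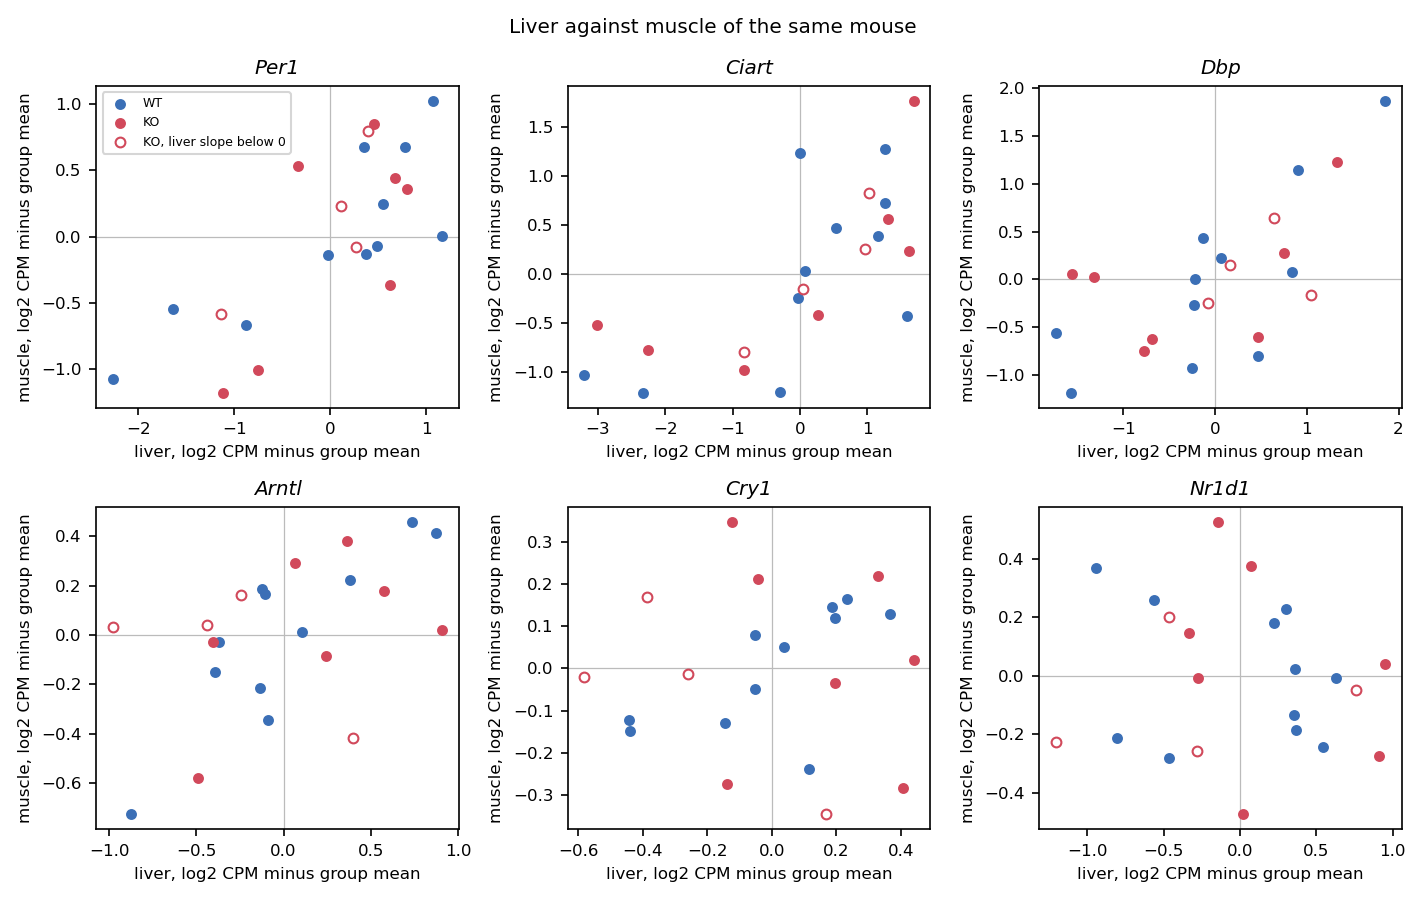
Muscle against liver of the same mouse for 6 clock genes, each as log2 CPM minus the mean of its genotype, with WT mice in blue, KO mice in red and open circles for mice whose KO liver counts fell with gene length. Per1 (r = 0.76), Ciart (0.70), Dbp (0.65) and Arntl (0.53) rise together, while Cry1 (0.074) and Nr1d1 (-0.13) show no such relation.

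The relation also crossed between genes of the 2 tissues. Liver Npas2 went against muscle Ciart with r of -0.89 and against muscle Per2 with -0.86, and liver Dbp went with muscle Per2 at 0.80 and against muscle Arntl at -0.72. Liver Arntl went against muscle Nr1d2 at -0.76 and muscle Per2 at -0.72. Liver Per1, which followed its own level in muscle, was at -0.0085 with muscle Arntl and -0.022 with muscle Dbp. These values are descriptive and share the same mice as those above.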

How the data were processed

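Poly(A) RNA libraries from liver and skeletal muscle of 22 mice were read single-end on a HiSeq4000. The authors deposited a table of raw read counts per Ensembl gene and a table of RPKM values for the same 44 libraries. Per the labels, limma was among the tools used, and the aligner, counter and genome build were not given in the sources used here. No column was left unused. The count table held no row without a gene.

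Libraries were grouped by genotype and tissue from the sample titles, and liver and muscle were joined by animal number, which names the same mouse. Over 11607 genes, deviations from the group mean correlated at a mean r of 0.10 between the tissues of 1 mouse and -0.0097 between different mice. Genes were filtered with filterByExpr, scaled by TMM and tested with the quasi-likelihood F-test of edgeR 4.0.16 in R 4.3.3, with Benjamini-Hochberg adjustment over all genes. The SE is the coefficient divided by the square root of F. DESeq2 1.42.0 and limma 3.58.1 (also on log2 of RPKM plus 0.1 or 1) were alternatives, and the group values of CPM used 1 TMM scaling over all libraries. Correlations used log2 CPM with a prior count of 2, centred within genotype, and two-sided permutation tests of 100000 resamples within genotype. On simulated data with known answers the tests recovered most of the changes they were given. No 2 libraries of a group had identical counts.

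The 10 genes, the other gene lists and the tests were chosen with earlier results of these data known. Named besides these were the genes of the clock lists that passed a test, or examples where none did, the 5 genes with a symbol at each end of the correlation with Arntl, and Slc16a13. Some genes that this rule names, and with them the calls of the other clock genes on Arntl in muscle, are not reported here. Cell type markers for adipocytes, macrophages, endothelium, fibroblasts and stellate cells and erythroid cells were also listed. Summed adipocyte markers were 16.7 to 130 CPM in liver and 251 to 1644 CPM in muscle, macrophage markers 274 to 913 and 10.6 to 55.5 CPM, endothelial markers 103 to 181 and 183 to 350 CPM, fibroblast and stellate markers 134 to 347 and 420 to 991 CPM, and erythroid markers 208 to 595 and 34.2 to 186 CPM. Mice, not libraries, are the replicates, and 11 of them in each group set the precision.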

Additional observations from a re-analysis of the deposited data

How the results depend on the processing

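In the tissue and genotype comparisons the counts of clock genes called stayed within 1.5 times under every alternative. The count of genes following Arntl did not. In liver it was 5 of 9, and 2 of the 8 tested in WT mice alone, 0 in KO mice alone and 0 with Nr1d1 as the reference. In muscle it was 4 of 9, and 0 in KO mice alone and 0 with Nr1d1. These fits used 11 mice, or another reference gene. The count of genes following between the tissues was 1, and 0 in WT mice alone, in KO mice alone, without the 4 mice whose KO liver counts fell with gene length, and with Spearman rho, where the largest rho of the 10 was 0.75. The cause of the last loss was not tested.

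Pairing by animal as a replicate block moved the counts between tissues from 7 to 8 in WT and from 8 to 9 in KO mice, and changed no other call of the 10 genes. The tissue difference of the slopes was tested after the data were seen, and 0 of 9 genes were called with or without the block. Its slope differences turned to -0.016 for Cry1, -0.35 for Nr1d2, -0.33 for Ciart and -0.29 for Dbp under the block.

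Directions that turned belonged to values that had not passed a test. For KO over WT in liver, without the 4 KO livers, Cry1 was 0.035, Per1 0.012, Nr1d2 0.028, Npas2 0.014 and Dbp -0.081, and Per1 was 0.012 in log2(RPKM + 0.1). For the difference of genotype effects, Per1 was 0.032 in log2(RPKM + 0.1), 0.046 without the 4 livers and 0.14 under the replicate block, where Nr1d2 was 0.0010 and Per2 0.15 without the 4 livers. For liver over muscle in KO mice, Npas2 was -0.030 by library size alone, -0.155 in log2(RPKM + 0.1), -0.025 in log2(RPKM + 1) and -0.059 under the replicate block. For the liver slope on Arntl, Nr1d1 was 0.038 in log2(RPKM + 0.1) and 0.0093 by limma-voom, and Nr1d2 was 0.063 in log2(RPKM + 0.1) and 0.13 in KO mice alone. Between the tissues of 1 mouse, r in KO mice alone was -0.21 for Cry1 and -0.021 for Nr1d2. Of 549 values under the alternatives, for single genes and for counts of the other clock and output genes called, 492 were unchanged. Unchanged means the same direction and side of the threshold for a gene, and within 1.5 times for a count. Depth limits Ciart most, with 10 reads in its lowest liver. Counts over all genes moved by more than 1.5 times from 3 to 6 with DESeq2 for genotype in liver, from 1 to 0 in RPKM and without the filter for genotype in muscle, and, for the difference of genotype effects between tissues, from 1 to 44 with DESeq2, 3 by library size alone, and 2 in RPKM and without the 4 livers. Those following Arntl in liver went from 736 to 1642 by library size alone, 1378 in RPKM, 113 without the 4 livers, 10 in WT and 29 in KO mice (365 with Nr1d1), in muscle from 70 to 28 in WT and 3 in KO mice (0 with Nr1d1), and the slopes that differed between tissues from 32 to 4 under the block. Those following between the tissues went from 24 to 0 in WT and 0 in KO mice alone (896 and 656 at an unadjusted permutation p under 0.05).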
